A study of Macaca mulatta with 102 samples.

Results

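The transcripts described here lie on chromosome 4 of the rhesus macaque between 29 and 33.5 Mb of the rheMac2 assembly, the interval expected to hold the major histocompatibility complex (MHC). They were chosen by position alone, as the annotated transcripts that start in this interval and span at least 200 bases, and 351 of the 42701 transcripts measured met this rule. The files pair no transcript with a gene name, so the members are given by position, the MHC name rests on the coordinates, and no marker gene could be used to check it or the sample types. RNA from mammary tissue and milk of 6 lactating macaques, called M1 to M6, was sequenced in 34 samples. All were prime-aged mothers of an outdoor breeding colony, each nursing an infant, and no group carried a genetic change or a treatment under study. The paper states that mothers were sedated with ketamine and given oxytocin for milking, with further sedation for a biopsy. Each animal gave 1 core biopsy of the mammary gland, at day 30 of lactation for M3, M4 and M6 and at day 90 for M1, M2 and M5, and 1 of the animals was treated for mastitis after its biopsy. Milk cells, pelleted from milk, came from all 6 animals at both days (n = 12). Milk fat, the layer taken off after spinning, came from M1, M2, M3 and M6 at day 30 and from all 6 animals at day 90 (n = 10). Cell-free milk came from all 6 animals at day 90, and this group rests on labels that name fat in 5 animals and skim in M3, taken as cell-free milk because the study counts 6 such samples.

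The MHC is a dense block of genes with immune functions. It holds the genes of class I molecules, which display peptides on nearly every nucleated cell, and of class II molecules, which antigen-presenting cells use to display peptides to helper T cells, with complement, cytokine and many housekeeping genes between them. Macaques carry many closely related class I copies, among which short reads are hard to assign. In milk, immune cells and shed epithelial cells make up the pellet, while fat globules can enclose cytoplasm of the secretory epithelium. In bulk RNA such as this, fewer cells of a type and less RNA per cell cannot be told apart.

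The members fell into 144 loci, each a set of transcripts that overlap on the assembly without regard to strand. At 83 of these loci 2 or more transcripts overlapped, up to 18 at 1 locus, and 61 members overlapped no other transcript. The median span of a member was 5455 bases against 11806 over all transcripts. Levels are FPKM, read counts normalised for transcript length and for the mapped reads of the library. They compare transcripts only roughly where these are short or overlap others. Of the members, 152 (43.3%) had a mean of at least 1 FPKM over the 4 sample types, against 32.1% of all transcripts, and 5.13% were at 0 in every sample, against 17.2% of all transcripts. The first member by position, chr4:29018975-29020316, was at 0 in every sample, and the last, chr4:33480617-33499290, had a mean of 0.860 FPKM in biopsies and 1.18 in milk fat. Just outside the bounds, chr4:28995580-28998093 was at 0 in biopsies and chr4:33504795-33514197 had a mean of 0.00804 FPKM there. The shortest member spanned 294 bases and the longest transcript left out for its length spanned 160.

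The region held a similar share of all FPKM in tissue and in milk. The members summed to 1780 ± 608 FPKM over the 6 biopsies (mean ± SD), 2203 ± 713 over the 12 samples of milk cells, 2480 ± 422 over the 10 of milk fat and 2131 ± 225 over the 6 of cell-free milk. As a share of all FPKM this was 0.181% ± 0.0729 in biopsies, 0.212% ± 0.0790 in milk cells, 0.214% ± 0.0436 in milk fat and 0.195% ± 0.0198 in cell-free milk. Within animals, the share in milk fat exceeded that in the biopsy by 0.0357 ± 0.0856 percentage points (SD over 6 animals) and was higher in 4 of 6. All 4 ranges overlapped, and the differences between types were smaller than their spread between animals. Milk cells had the widest range, from 0.115% to 0.399%, and the highest value belonged to the day 30 sample of M2. Between the days, the share in milk cells differed by -0.0220 ± 0.0524 points (day 90 minus day 30, n = 6 animals) and that in milk fat by -0.000545 ± 0.0429 points (n = 4). In the day 30 milk fat of M6, transcripts under 200 bases held 30.7% of all FPKM. With such transcripts left out of the total, the milk fat share was lower at day 90 in each animal. It went from 0.227% to 0.219% in M1, 0.330% to 0.268% in M2, 0.191% to 0.173% in M3 and 0.215% to 0.214% in M6.

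**Figure D1:**
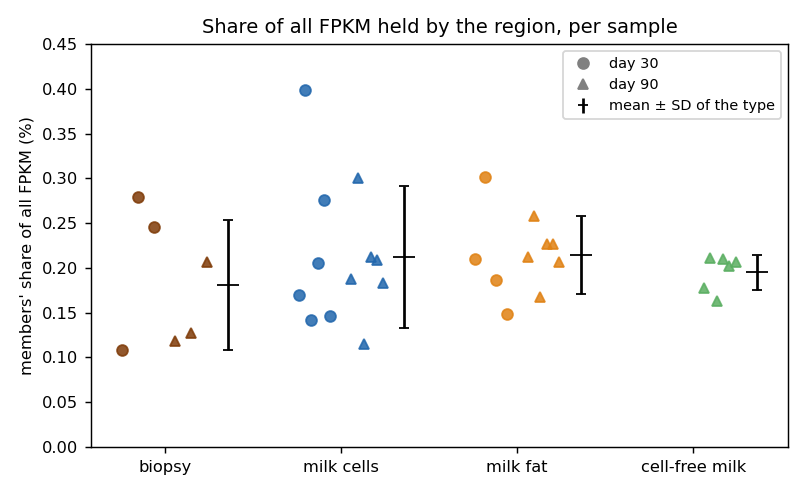
Share of all FPKM held by the 351 members (y axis, percent) in each of the 34 samples by sample type (x axis), with circles for day 30, triangles for day 90 and bars for the mean ± SD of the type. The 4 types overlap, and milk cells run from 0.115% to 0.399%.

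The level was uneven along the region. In windows of 0.5 Mb, the summed FPKM was highest in the last window, from 33.0 to 33.5 Mb, at 378 ± 165 in biopsies, 568 ± 89.5 in milk cells, 942 ± 150 in milk fat and 746 ± 42.1 in cell-free milk. There, the lowest milk fat sample (710 FPKM) and the lowest cell-free milk sample (708) lay above the highest biopsy (582). The windows from 29.0 to 29.5, 30.5 to 31.0 and 32.0 to 32.5 Mb were the lowest, with biopsy means of 14.3 ± 6.21, 26.0 ± 23.3 and 41.0 ± 52.9 FPKM, and in the last of them the spread between animals exceeded the mean in biopsies. In the window from 32.0 to 32.5 Mb, milk fat ranged from 0.591 to 84.8 FPKM with a median of 13.6, and milk cells from 5.44 to 131 with a median of 34.1. In the window from 30.0 to 30.5 Mb the 4 types were close, with means between 364 and 386 FPKM.

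**Figure D2:**
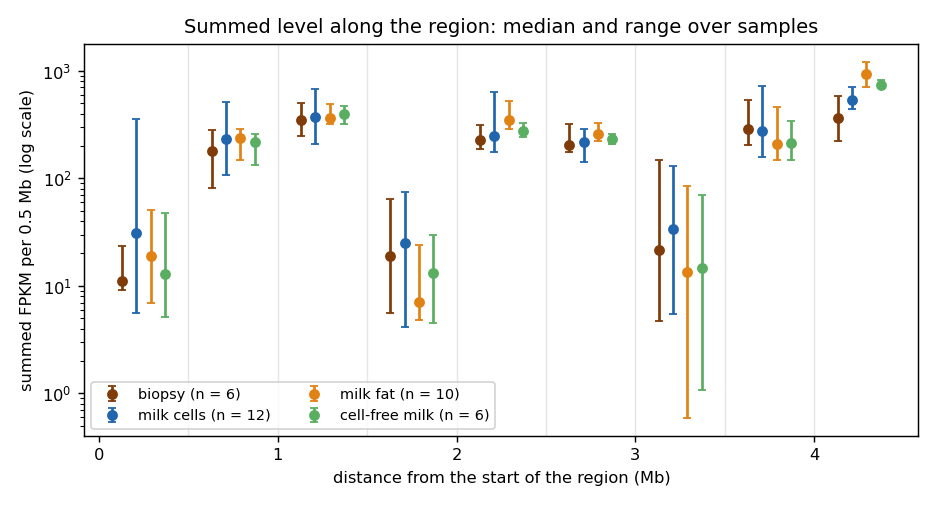
Summed FPKM of the members in each 0.5 Mb window (y axis, log scale) against distance from the start of the region (x axis, Mb), with a point for the median over samples and a bar from the lowest to the highest sample of each type. The last window holds the highest levels in every type, and 3 windows lie well below the others.

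A single short transcript accounted for much of the last window. The member at chr4:33320809-33321151, which spans 342 bases, had the highest level of the region and stood at rank 108 of all transcripts by its mean over the sample types. In biopsies it ranged from 121 to 375 FPKM with a median of 219, in milk cells from 290 to 475 (median 361), in milk fat from 473 to 819 (median 643) and in cell-free milk from 497 to 558 (median 514). Every milk fat and cell-free milk sample lay above every biopsy, while milk cells overlapped the biopsies. It made up 12.9% of the region's summed mean FPKM in biopsies, 17.0% in milk cells, 26.2% in milk fat and 24.4% in cell-free milk. On the log2(scaled FPKM + 1) scale used for all differences below, it was higher in milk fat than in biopsies by 1.43 (SE 0.20, limma adjusted p = 6.96e-05, 6 of 6 animals), a 2.69-fold change, and it exceeded the level of milk cells by 0.85 in milk fat (SE 0.12, adjusted p = 0.000304, 6 of 6 animals). Sample titles hold a number, 2, 3 or 4, that the labels do not explain, and samples that share it are called a pool here. Within pools 2, 3 and 4, mostly made up of different animals, the difference between milk fat and biopsies was 1.83, 1.44 and 0.73. Values for such a short transcript depend strongly on the length correction in FPKM.

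Among the other members that lead the 10 highest loci, 4 had the same order of means. At chr4:30304856-30310098 the mean was 88.8 ± 15.8 FPKM in milk fat, 72.6 ± 8.87 in cell-free milk, 66.4 ± 12.4 in milk cells and 45.4 ± 18 in biopsies. At chr4:33003532-33004652 it was 68.6 ± 7.61, 50.1 ± 5.4, 40.7 ± 10.4 and 22.5 ± 7.28 FPKM in the same order. The members chr4:31310383-31314314 and chr4:33147434-33148780, with means of 91.5 ± 16.2 and 72.6 ± 12.6 FPKM in milk fat and 43.8 ± 5.26 and 30.0 ± 13.2 in biopsies, had this order too. With the member above, all of these passed an adjusted p of 0.05 in milk fat against biopsy, against milk cells and, lower in cell-free milk, in cell-free milk against milk fat. The neighbours in this order that did not pass were cell-free milk and milk cells at all of them, and milk cells and biopsy at chr4:31310383-31314314 (log2 difference 0.0029, SE 0.12, limma adjusted p = 0.987). When loci were tested, chr4:33320809-33321151, alone at its locus, did pass in cell-free milk against milk cells of day 90 (0.42, SE 0.096, limma adjusted p = 0.0468).

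Other abundant members were highest in the biopsies. At chr4:32915326-32918812 biopsies ranged from 50.7 to 62.7 FPKM with a median of 55.6, milk cells from 25.2 to 51.5 (median 34.7), milk fat from 26.8 to 42.2 (median 35.0) and cell-free milk from 29.5 to 49.9 (median 35.0). In FPKM before scaling, only 1 milk cell sample lay within the biopsy range and all milk fat and cell-free milk samples lay below it. The difference was -0.87 in milk fat (SE 0.16, limma adjusted p = 0.000454, lower in 5 of 6 animals) and -0.93 in milk cells (SE 0.18, adjusted p = 0.00142, 6 of 6 animals). At chr4:30468290-30471972 the mean was 78.0 ± 35.7 FPKM in biopsies, 66.0 ± 21.2 in cell-free milk, 50.7 ± 32.5 in milk cells and 41.3 ± 14.8 in milk fat, with overlap between all types. It was lower than in biopsies by 1.02 in milk fat on the fitted scale, in 6 of 6 animals.

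The comparison of milk with the gland asks how far milk RNA stands in for tissue RNA. A member was called when its adjusted p was under 0.05 and its change more than 3-fold, and only members with a mean of at least 1 FPKM in the samples compared were tested, so a transcript low in milk could be tested through its level in biopsies alone. Between milk fat and biopsies 8 of 147 tested members were called higher, where 3.24% of all tested transcripts were, and 6 were called lower, where 6.33% were. Between milk cells and biopsies 2 of 162 were called higher (1.94% of all tested) and 5 lower (4.42%). Between cell-free milk and biopsies 2 of 151 were called higher (1.82%) and 8 lower (6.09%). These 3 comparisons share the same 6 biopsies. By adjusted p alone, 46 members were higher and 40 lower in milk fat than in biopsies (29.9% and 25% of all tested), 20 higher and 44 lower in milk cells (21.5% in each direction) and 30 higher and 39 lower in cell-free milk (26.5% and 21.5%). The 20 higher in milk cells became 10, 12 and 11 without M1, M2 and M3, and the 44 lower became 21 with FPKM as deposited. The median log2 difference of the tested members was -0.031 for milk fat, -0.0067 for milk cells and -0.18 for cell-free milk, against 0.068, 0.021 and 0.052 over all tested transcripts.

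**Figure D3:**
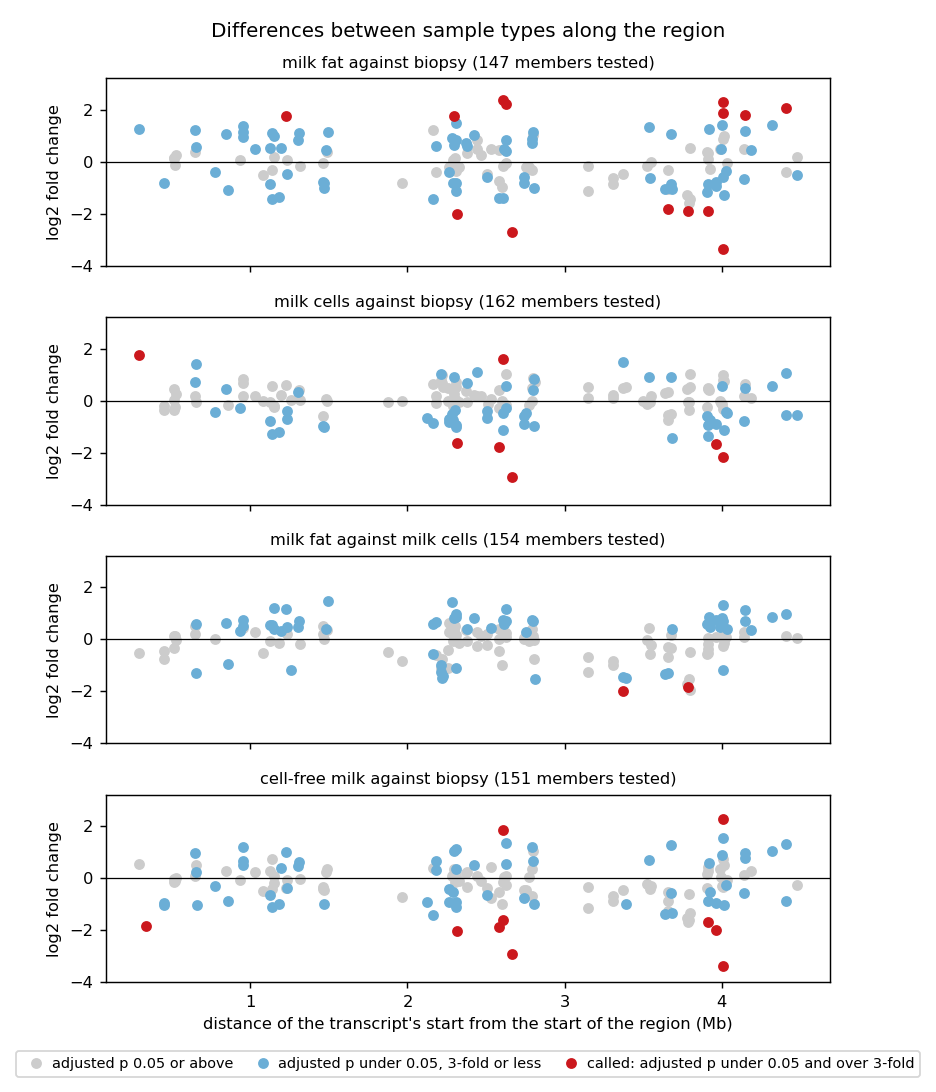
Log2 fold change of each tested member (y axis, log2(scaled FPKM + 1) scale) against the distance of its start from the start of the region (x axis, Mb) in 4 comparisons, coloured by the adjusted p and by the 3-fold threshold. The members called in either direction are 14 for milk fat against biopsy, 7 for milk cells against biopsy, 2 for milk fat against milk cells and 10 for cell-free milk against biopsy.

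The transcript at chr4:31666232-31673003 (ENSMMUT00000001092) was nearly restricted to the biopsies. There it ranged from 4.57 to 13.6 FPKM with a median of 7.16. It ranged from 0.0758 to 0.677 in milk cells (median 0.228), from 0.149 to 0.848 in milk fat (median 0.644) and from 0.0765 to 0.808 in cell-free milk (median 0.283). No milk sample of any kind reached 1 FPKM, and no biopsy was below 4. The log2 difference from biopsies was -2.95 in milk cells (SE 0.17), -2.69 in milk fat (SE 0.18) and -2.89 in cell-free milk (SE 0.18). Each fall was seen in 6 of 6 animals. The transcript reached the mean of 1 FPKM only through the biopsies, so no p-value is given for it or its locus. Within pools 2, 3 and 4 the milk fat difference was -2.69, -2.46 and -2.98. Summed over the 3 transcripts of its locus, chr4:31663485-31673003, the log2 fall from biopsies was 2.86 for milk cells, 2.84 for cell-free milk and 2.65 for milk fat. These falls were close to those of the transcript, so their size did not depend on how reads were divided at the locus.

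In the other direction, chr4:33408787-33422952 (ENSMMUT00000029120) rose from tissue to milk fat. Its level ranged from 7.07 to 21.5 FPKM in biopsies (median 10.5), from 15.6 to 49.0 in milk cells (median 32.9), from 42.1 to 85.0 in milk fat (median 57.7) and from 26.1 to 49.9 in cell-free milk (median 34.6). The lowest milk fat and cell-free milk samples were above the highest biopsy, and milk cells overlapped every other type. The difference between milk fat and biopsies was 2.05 (SE 0.19, limma adjusted p = 2.07e-06, 6 of 6 animals), a 4.15-fold change, and the sum over its locus gave 2.03 (adjusted p = 1.56e-06).

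Most other calls concerned 1 transcript at a locus whose total moved far less. In milk fat against biopsies, the 14 called transcripts lay in 12 loci, and the summed FPKM of the locus was called in the same direction for 2 of them, those just described. For 3 of the 14 the sum had the other sign, with an adjusted p under 0.05 for 1 of these, and for 5 another transcript of the locus passed an adjusted p of 0.05 in the opposite direction. In cell-free milk against biopsies, the locus sum was called in the same direction for 1 of 10 called transcripts and had the other sign for 3, again with an adjusted p under 0.05 for 1. In milk cells against biopsies the sum was called for 1 of 7 and had the other sign for 1, at an adjusted p of 0.504. When loci were tested in place of transcripts, 1 locus was called higher and 1 lower in milk fat than in biopsies, against 2.28% and 5.56% of all 10065 loci tested. In milk cells against biopsies 0 loci were called higher (1.23% of all loci tested) and 1 lower (3.71%), and in cell-free milk 0 higher (0.939%) and 2 lower (5.68%). Cufflinks, which made these values, divides reads among overlapping transcripts by likelihood, so a value for 1 transcript of a locus is less certain than the sum.

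**Figure D4:**
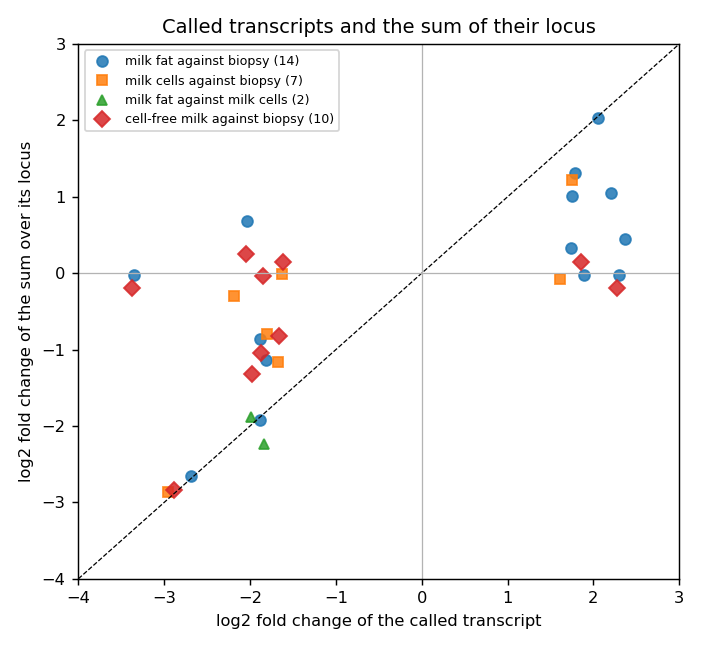
Log2 fold change of each called transcript (x axis) against that of the summed FPKM of its locus (y axis), with 1 symbol for each comparison and a dashed line where both are equal. For milk fat against biopsies, 2 of the 14 called transcripts have a locus sum that was itself called in the same direction.

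The clearest example was the locus chr4:33005391-33012824, with 5 overlapping transcripts. Its summed FPKM was 25.0 ± 11.8 in biopsies, 23.1 ± 7.74 in milk cells, 27.6 ± 8.07 in milk fat and 24.5 ± 3.37 in cell-free milk, and the log2 difference between milk fat and biopsies was -0.021 (SE 0.18, limma adjusted p = 0.929). Within it, chr4:33005399-33012824 (ENSMMUT00000005489) was at 7.63 to 13.6 FPKM in biopsies (median 8.63), but at most 0.45 in milk fat (median 0.177) and at most 0.327 in cell-free milk (median 0.104). It held 43.8% ± 15.9 of the locus in biopsies, 9.14% ± 8.56 in milk cells and 0.645% ± 0.530 in milk fat. It had the largest called difference of the region, -3.36 in milk fat (SE 0.11) and -3.37 in cell-free milk (SE 0.12), in 6 of 6 animals each. In these comparisons it reached the mean of 1 FPKM only through the biopsies, so no p-value is given.

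A second transcript of this locus showed the reverse. The transcript chr4:33005391-33012810, which starts 8 bases earlier and ends 14 bases earlier, was listed at 9.88e-06 FPKM or less in all 6 biopsies, effectively 0, so no fold is given. It was at 1.27 to 4.89 FPKM in milk fat (median 2.98) and at 2.57 to 6.55 in cell-free milk (median 3.77). It was called higher in milk fat and in cell-free milk. It reached the mean of 1 FPKM only through the milk samples, so no p-value is given. Another, chr4:33005391-33010846, had a median of 1.07 FPKM in biopsies and 9.24 in milk fat, with a difference of 2.30 (SE 0.46, adjusted p = 0.00102) that was 3.61 and 2.25 within pools 2 and 3 and 0.28 within pool 4, which holds 1 biopsy.

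At chr4:33005399-33012824 milk cells lay between tissue and milk fat and were mixed. The 12 milk cell samples ranged from 0.237 to 10.04 FPKM with a median of 1.17, and the 3 highest were both samples of M2 (10.04 at day 30 and 6.03 at day 90) and the day 90 sample of M4 (5.39). The other milk cell samples were at 2.26 FPKM or less, and the difference from biopsies was -2.19 (SE 0.30, limma adjusted p = 9.76e-05, 6 of 6 animals).

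**Figure D5:**
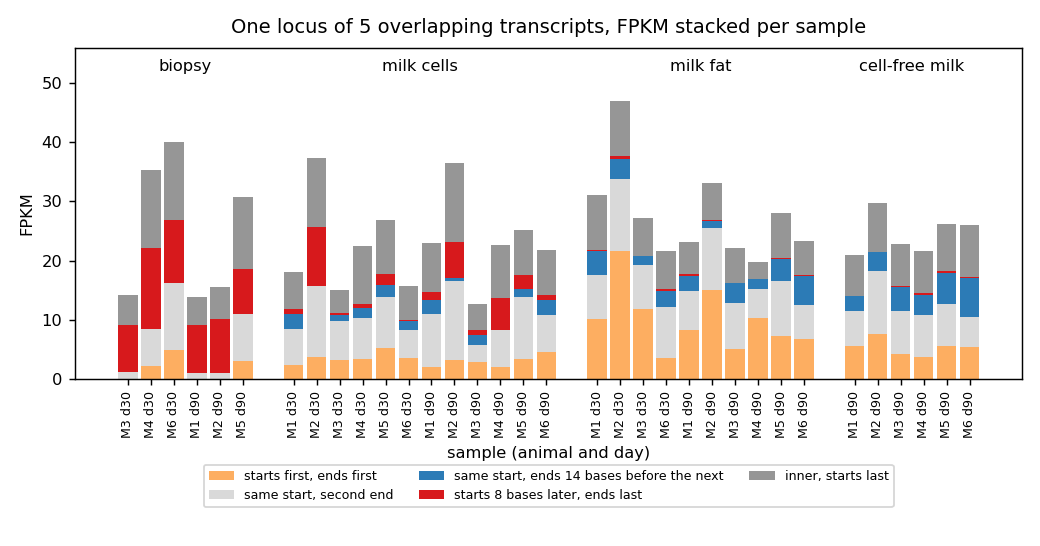
FPKM of the 5 overlapping transcripts of 1 locus (y axis), stacked for each of the 34 samples (x axis, animal and day) and ordered by sample type. The transcript that starts 8 bases later and ends last (red) is at 7.63 to 13.6 FPKM in biopsies and at most 0.45 in milk fat, while the stacks have similar heights across types.

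The same kind of division appeared at other loci. At chr4:31608144-31614672 (ENSMMUT00000001055) the longest transcript ranged from 8.71e-06 to 3.14 FPKM in biopsies (median 0.421), from 3.28 to 8.43 in milk cells (median 4.67), from 6.48 to 15.3 in milk fat (median 7.69) and from 4.71 to 7.40 in cell-free milk (median 6.06). Every milk sample lay above every biopsy. The difference from biopsies was 2.37 in milk fat (SE 0.32, limma adjusted p = 5.83e-05), 1.61 in milk cells (SE 0.32, adjusted p = 0.00149) and 1.86 in cell-free milk (SE 0.31, adjusted p = 0.000391), in 6 of 6 animals each. Within pools 2, 3 and 4 it was 3.03, 2.45 and 1.15 in milk fat, 2.18, 1.51 and 0.69 in milk cells, and 2.38, 1.80 and 0.96 in cell-free milk. The milk cell call was lost when M1, M2, M3 or M5 was left out, with differences from 1.44 to 1.56. Its neighbour chr4:31608262-31614661 went down, by 1.41 in milk fat (SE 0.19), and held 25.6% ± 8.56 of the locus in biopsies against 2.58% ± 1.73 in milk fat. This neighbour reached the mean of 1 FPKM only through the biopsies, so no p-value is given for it. The sum over the locus differed by 0.45 in milk fat and by -0.074 in milk cells (adjusted p = 0.504).

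At chr4:31313376-31316528 biopsies ranged from 1.57 to 4.04 FPKM (median 2.84), milk cells from 0 to 1.36, milk fat from 0 to 0.133 and cell-free milk from 0 to 0.0529. Biopsies did not overlap any milk type, and the difference was -2.03 in milk fat (SE 0.12) and -1.63 in milk cells (SE 0.15). This transcript reached the mean of 1 FPKM only through the biopsies, so no p-value is given for it. The locus as a whole, of which this transcript held 5.57% ± 1.16 in biopsies, was higher in milk fat by 0.68 (limma adjusted p = 0.000464). At chr4:31627545-31635331 the median was 2.52 FPKM in biopsies, 5.66 in milk cells, 12.5 in milk fat and 7.85 in cell-free milk. The difference between milk fat and biopsies was 2.20 (SE 0.47, adjusted p = 0.0016), and it was 3.22, 2.15 and 0.53 within pools 2, 3 and 4. At chr4:31579975-31601651 the median was 4.14 FPKM in biopsies and 0.591 in milk cells, a difference of -1.80 (SE 0.41, 6 of 6 animals), and of -2.55, -1.53 and -1.20 within the pools. With a milk cell median under 1 FPKM, this member may have been tested through the biopsies alone, so no p-value is given.

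Milk fat and milk cells were compared to ask how the fractions of milk differ. Of 154 tested members 0 were called higher in milk fat (0.592% of all tested) and 2 lower (1.15%). By adjusted p alone 48 were higher and 17 lower (25.6% and 18.1% of all tested). The 17 lower became 8 without M2, 9 without M5 and 34 with animal as a block. The 7 tested members between 32.0 and 32.5 Mb all belonged to 1 locus of 18 overlapping transcripts, chr4:32150092-32398423. Their estimates were lower in milk fat, with a median log2 difference of -1.25, and 3 of them passed an adjusted p of 0.05, while the sum over the locus did not (-1.88, SE 0.91, adjusted p = 0.109). In the window from 30.0 to 30.5 Mb, 11 of 22 were higher by adjusted p and 1 lower. The member chr4:32373436-32378557 ranged from 1.38 to 23.6 FPKM in milk cells (median 4.48) and from 0.110 to 2.45 in milk fat (median 0.478). The types overlapped between samples, yet milk fat was lower in 6 of 6 animals, by 1.98 on the log2 scale (SE 0.30). Within the 3 pools it was lower by 2.02, 2.02 and 1.90. This member reached the mean of 1 FPKM only through milk cells, so no p-value is given.

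At chr4:32784378-32789508 milk cells ranged from 1.28 to 46.3 FPKM (median 5.86) and milk fat from 0.0727 to 8.33 (median 1.45). The ranges overlapped widely, and the fall of 1.83 (SE 0.62, limma adjusted p = 0.0305, 6 of 6 animals) no longer passed when M1, M2, M3 or M5 was left out. Within pools 2, 3 and 4 it was -1.87, -2.82 and -0.99. Animals differed more than types here: both milk cell samples of M2 and of M4 were at 17.3 to 46.3 FPKM, and the others at 11.8 or less. With animal as a block the fall at this member had an adjusted p of 0.00116, and 4 members were called lower in place of 2. The added members were chr4:32780338-32795982 and chr4:32800256-32800816, at -1.71 (adjusted p = 0.128 without the block, 0.00425 with it) and -1.96 (0.101 without, 0.0195 with it).

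The spread between animals at chr4:32800256-32800816 was among the widest of the abundant members. In biopsies it ranged from 5.04 to 87.8 FPKM with a median of 28.1, and M4 was highest. In milk cells it was 218 FPKM at day 30 and 132 at day 90 in M2, against 14.6 and 20.9 in M6. In milk fat M2 was at 114 and 96.3 FPKM and M1 at 1.13 and 2.83, and in cell-free milk M2 was at 85.6 and M3 at 2.86. M2 was the highest animal in each of the 3 milk types.

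Summed by locus, the differences at these called members were of like size but no longer passed, at -1.88 (SE 0.91) for the locus of chr4:32373436-32378557 and -2.24 (SE 0.97, adjusted p = 0.0755) for that of chr4:32784378-32789508. The loci chr4:31215427-31218587 and chr4:31221561-31224382 were called lower in milk fat, by 1.77 (SE 0.48) and 2.26 (SE 0.55), in 6 of 6 animals each. Of all loci tested, 0.949% were called lower, and 0 loci of the region were called higher (0.119% of all). Both loci reached the mean of 1 FPKM only through milk cells, so no p-value is given. The first had a median of 1.4 FPKM in milk cells, with a highest sample of 31.4, and was at 0.266 or less in milk fat. The second ranged from 0.673 to 112 FPKM in milk cells (median 2.33) and from 0 to 0.681 in milk fat. A few milk cell samples were thus far above the rest at both loci.

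Cell-free milk was also compared with the other milk types of day 90. Of 136 tested members 0 were called in cell-free milk against milk fat (0.212% of all tested were called higher and 0.291% lower), and of 146 tested 0 were called against milk cells (0.0374% and 0.284%). By limma's adjusted p alone, 3 members were higher and 32 lower than in milk fat (13.3% and 17.1% of all tested), and 45 had an unadjusted p under 0.05. With animal as a block 10 were higher and 44 lower, and without M1 the 32 lower became 21 and without M2 the 3 higher became 1. The member with the smallest p was chr4:32919039-32921216, at 15.2 ± 1.21 FPKM in cell-free milk and 23.9 ± 3.23 in milk fat over both days, with a day 90 difference of -0.72 (SE 0.11, adjusted p = 0.00342, 6 of 6 animals). Against milk cells 3 members were higher and 2 lower by limma's adjusted p alone (0.344% and 0.868% of all tested), and 40 had an unadjusted p under 0.05. No member passed without M4 or without M5 (smallest adjusted p 0.0519 and 0.0575), 1 passed without M2, 2 without M6 and 3 without M1, while 10 passed without M3 and 17 with animal as a block. The lower ones were chr4:32373436-32378557 (-1.47, adjusted p = 0.019) and chr4:33005399-33012824 (-1.42). Both were also lower in milk fat than in milk cells by adjusted p. The second reached the mean of 1 FPKM only through milk cells, so its p-value is not given. The higher ones were led by chr4:31627545-31635331 (0.65, SE 0.10, adjusted p = 0.00736).

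Between day 30 and day 90 of lactation, 0 of 154 tested members were called in milk cells (0.0796% of all tested were called higher and 0.0145% lower). By limma's adjusted p alone 7 were higher and 2 lower at day 90 (3.53% and 1.57% of all tested), and 37 had an unadjusted p under 0.05. None of these passes held when M1, M2, M4, M5 or M6 was left out (smallest adjusted p 0.0517 to 0.202), with FPKM as deposited (0.0603) or without the filter on low FPKM (0.0665). Without M3, 24 were higher and 7 lower, and with animal as a block 14 were higher and 17 lower. The member chr4:31627545-31635331 was at 6.51 to 9.16 FPKM at day 30 (median 7.96) and at 3.73 to 4.82 at day 90 (median 4.42), without overlap, and fell by 0.67 (SE 0.11, adjusted p = 0.0342, 6 of 6 animals). The member chr4:31376196-31379922 was at 42.5 to 120 FPKM at day 30 and at 29.5 to 57.9 at day 90, lower in 6 of 6 animals.

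The member chr4:29289740-29292775 had the largest day difference among those whose call changed with animal as a block. In milk cells it ranged from 17.3 to 349 FPKM at day 30 and from 2.93 to 70.3 at day 90, so the days overlapped, and it was lower at day 90 in 6 of 6 animals. The log2 difference was -1.83, with a limma adjusted p of 0.123 without the block and 0.00683 with animal as a block, which made 1 called member in place of 0. M5 was highest at both days. In milk fat it was at 35.7, 35.3, 20.3 and 15.6 FPKM at day 30 in M1, M2, M3 and M6 and at 15.6, 15.9, 7.94 and 5.85 at day 90 in the same animals, and the difference did not pass (-0.68, SE 0.45, adjusted p = 0.932). In biopsies, it ranged from 2.82 to 16.7 FPKM (median 4.88), and milk cells were called higher by 1.75 (SE 0.60, adjusted p = 0.0319, 6 of 6 animals), a call lost when M1, M2, M3 or M5 was left out. Within pools 2, 3 and 4 this difference was 2.47, 0.41 and 3.29.

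In milk fat 0 of 137 tested members passed an adjusted p of 0.05 between the days, as 0 of all 12609 transcripts did (0% called), and 2 had an unadjusted p under 0.05 by limma. In biopsies, where the days come from different animals, 0 of 162 passed (0% of all tested), and 5 had an unadjusted p under 0.05. The smallest adjusted p was 0.915 in milk fat, at chr4:30312371-30324240, and 0.96 in biopsies. The day effect in milk cells was also tested against that in milk fat: 0 of 154 members passed (smallest limma adjusted p 0.217, 0% of all tested), 21 had an unadjusted p under 0.05, and 6 passed with animal as a block. Each sample counted as its own value in this test, so without the block samples of the same animal were treated as independent.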

How the data were processed

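The values were the FPKM that the authors deposited, 1 column for each of 3 technical runs of 34 samples. The authors sequenced poly(A) RNA as single reads of 100 bases, trimmed these, aligned the reads to rheMac2 by TopHat, and computed FPKM for Ensembl transcripts in Cufflinks. Another 6 columns matched no sample and were not used here. FPKM give no read counts, so the depth of each sample is unknown and no counting interval was computed. The paper gives a total of mapped reads and an average over samples. Relative depth, estimated from the steps of 555 low transcripts, ranged from 0.740 to 1.63 of the median sample, and 0 pairs of samples were identical.

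Runs were averaged, and for the fits each sample was divided by its median-of-ratios factor. FPKM levels and ranges are given before this scaling, so their overlap can differ from that of the fitted values. Log2(scaled FPKM + 1) values were compared by limma 3.58.1 (R 4.3.3), two-sided, over all transcripts reaching a mean of 1 FPKM in the groups involved, and p-values were adjusted after Benjamini and Hochberg. For comparisons of types, the log2 values of the 2 days were averaged within each animal. A fold on this scale understates the change of low transcripts. The main fits held no term for animal, and animal as a block was fitted as an alternative. For that block and for the counts of animals, pairing came from the labels, since samples share animals. Deviations from the group means correlated within animals at a mean of 0.161 to 0.449 (exact one-sided permutation p = 0.00139 each, the smallest possible). Differences within pools 2, 3 and 4 were computed for the named members, and pool 4 holds 1 biopsy. The pools were taken from a number in the sample titles, which the labels do not explain. Pool 2 holds M1 and M2, pool 3 holds M3, M4 and the biopsy of M5, and pool 4 holds M6 and the milk of M5. Pool and animal thus cannot be told apart, and pools 3 and 4 set M5 samples against samples of other animals. The fits were tested on simulated data. Replicates are animals, so p-values reflect the spread between 6 animals. The test of the day effect in milk cells against that in milk fat differs, since each sample counted there as its own value.

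Named members were the highest of each of the 10 loci with the highest level, and for each comparison the 3 called members with the largest change in each direction, 1 for each locus, or the smallest p where none was called. Other members were named after their values were seen: those that share a locus with them, the loci called as sums, those whose call changed with the animal block, and those that passed by adjusted p alone. The members and rules were chosen with earlier results of these data known. Gene lists and cell type markers could not be used, since identifiers were not paired with gene names. Alternatives covered scaling, pseudocount, filter, locus sums, the block and each animal left out. Python 3.11.15, numpy 2.4.6 and pandas 2.3.3 were used for levels.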

Additional observations from a re-analysis of the deposited data

Results flagged for a closer look

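Summed FPKM of the 0.5 Mb windows, the share of the region and the levels of the 10 highest loci were each searched for a sample far from the others of its group, in 120 groups of samples, and 14 stood apart. Chance flags about 1 in 20 groups, and these measures share samples and transcripts, so the flags are not independent.

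M2 at day 30 accounted for 6 of them. In milk cells its window from 31.0 to 31.5 Mb was at 630 FPKM (others 220.1 to 372) and the member chr4:30081382-30084438 at 347 FPKM (others 23.7 to 121). In milk fat of 4 animals its windows from 31.5 to 32.0 and from 32.5 to 33.0 Mb were at 324 (others 249 to 258) and 457 FPKM (others 174 to 200), and the members chr4:33147434-33148780 and chr4:32800256-32800816 at 87.1 FPKM (others 64.8 to 67.03) and 114 FPKM (others 0.501 to 8.07). The biopsy of M4 stood apart at 147 FPKM from 32.0 to 32.5 Mb (others 4.66 to 31.9), at 539 from 32.5 to 33.0 Mb (others 202 to 305) and at 87.8 at chr4:32800256-32800816 (others 5.04 to 32.9), and its day 90 milk fat at 84.8 from 32.0 to 32.5 Mb (others 0.591 to 31.3). From 29.0 to 29.5 Mb, M5 was at 359 FPKM in day 30 milk cells (others 18.3 to 109) and at 50.7 in day 90 milk fat (others 6.95 to 19.7). M3 milk fat was at 147 FPKM from 29.5 to 30.0 Mb at day 90 (others 233.7 to 265) and at 15.2 from 30.5 to 31.0 Mb at day 30 (others 5.38 to 6.90). Why these samples stood apart was not tested.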

How the results depend on the processing

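Of the values recomputed under alternatives, counts of called members depended most on the pseudocount, the fold threshold and the unit tested. With a pseudocount of 0.1, 12 members were lower in milk fat than in biopsies, 7 higher and 10 lower in milk cells than in biopsies, 3 higher and 15 lower in milk fat than in milk cells, 1 higher and 2 lower in cell-free milk than in milk fat, 4 lower in cell-free milk than in milk cells, and 8 higher and 19 lower in cell-free milk than in biopsies. By adjusted p alone the counts, higher and lower, were 46 and 40 for milk fat and 20 and 44 for milk cells against biopsies, 48 and 17 for milk fat against milk cells, 3 and 32 for cell-free milk against milk fat, 3 and 2 against milk cells, 30 and 39 against biopsies, and 7 and 2 for the days of milk cells. As locus sums, 1 and 1 were called in milk fat, 0 and 1 in milk cells and 0 and 2 in cell-free milk against biopsies. With FPKM as deposited, 3 members were lower in milk cells than in biopsies, and the median log2 difference of all transcripts between milk fat and biopsies was 0.23 in place of 0.068. Without the filter, 1 was higher in milk cells than in biopsies and 1 was lower in milk fat against milk cells. With every sample as its own value 5 were lower in milk fat than in milk cells.

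With animal as a replicate block, 4 members fell from milk cells to milk fat, 1 was lower at day 90 in milk cells and 6 differed in day effect between milk cells and milk fat, and no other count of called members moved by over 1.5 times. Of the counts by adjusted p alone, those of members lower in milk fat than in milk cells, higher in cell-free milk than in milk fat, different between cell-free milk and milk cells, and different between the days of milk cells moved by more. The biopsy days could not be paired, since they come from different animals. With locus sums the sign differed for 5 named differences: chr4:33005391-33010846 to -0.021 and chr4:31313376-31316528 to 0.68 in milk fat, chr4:31608144-31614672 to -0.074 in milk cells, and chr4:33005391-33012810 to -0.19 and chr4:31313376-31316528 to 0.25 in cell-free milk, all against biopsies. The sums of 0.68 and 0.25 passed an adjusted p of 0.05 and the other 3 did not. Sums add the overlapping transcripts, so a transcript's change is diluted by the others. Without the highest member, chosen after seeing the data, the share of the region was 0.158% in milk fat and 0.147% in cell-free milk, against 0.157% in biopsies and 0.176% in milk cells.

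Leaving out each animal in turn gave 0 to 4 higher and 3 to 7 lower members in milk cells against biopsies (0 higher without M1, M2, M3 or M5, 4 without M4, and 3 lower without M1), 0 to 1 higher and 1 to 6 lower in milk fat against milk cells (1 higher without M3 or M5, and 5, 1, 1 and 6 lower without M1, M2, M5 and M6), 0 to 1 lower in cell-free milk against milk cells (1 without M1), 2 to 4 higher in cell-free milk against biopsies (4 without M6) and 0 to 4 for the day effects (4 without M3). Counts of called members in the milk fat comparisons did not change without the day 30 milk fat sample of M6, in which transcripts under 200 bases held 30.7% of all FPKM (others 1.22% to 8.74%), left out after seeing the data. Other than for the sums, the cause of a change was not tested. The depth in reads of each sample is unknown, which limits what can be said of members near 0.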

Other observations

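Other members moved with the day in milk cells without reaching a 3-fold change. Of the 7 that were higher at day 90 by limma's adjusted p, 6 were higher in 6 of 6 animals and 1, at chr4:31262283-31279106, in 5 of 6. No member passed when M1, M2, M4, M5 or M6 was left out, with FPKM as deposited or without the filter on low FPKM, and 24 were higher without M3. At chr4:30179600-30195744 the median was 5.86 FPKM at day 30 and 14.3 at day 90, and the days overlapped (log2 difference 0.98, SE 0.24, limma adjusted p = 0.0404). At chr4:31775944-31784582 the medians were 1.35 and 3.53 FPKM, again with overlap (0.79, SE 0.17, limma adjusted p = 0.0384). At chr4:31790006-31797737 the days did not overlap (0.52, SE 0.13, limma adjusted p = 0.0455).

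The locus chr4:31770679-31775403, with 3 transcripts, is 1 of the 2 whose sum was called lower in cell-free milk than in biopsies. It reached the mean of 1 FPKM there only through the biopsies, so no test of it is given. Its summed FPKM ranged from 1.16 to 3.203 in biopsies. The range was 0.0336 to 0.703 in milk cells, and 0.0222 to 0.319 in milk fat. In cell-free milk it was 0.141 to 0.348, so the biopsies did not overlap any milk type. Its mean was under 1 FPKM over the samples of milk fat and biopsies and over those of milk cells and biopsies, and it was not tested there.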
